A study of Danio rerio with 20 samples.

Results

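The nuclear genes for subunits of mitochondrial complexes II to V were measured in the muscle of zebrafish (Danio rerio) by RNA sequencing. Members were taken by gene symbol, without regard to case: SDHA, SDHB, SDHC, SDHD and CYC1, and all symbols that start with uqcr, cox4, cox5, cox6, cox7, cox8 or atp5. This gave 52 of the 32105 genes in the counts table, of which 5 belong to complex II, 9 to complex III, 18 to complex IV and 20 to complex V. A low-count filter over the whole table kept 17025 genes, among them 51 of the 52 members. The remaining member, the SDHD copy ENSDARG00000055712, had 0 to 18 counts per library and was not tested.

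All fish were males of the strain given as AB JxTu. The 4 groups of 5 libraries are fish of 1 year or 3 years with no perturbation (1y_control, 3y_control) and fish of the same ages from a swim tunnel, in which fish swim against a current (1y_swim, 3y_swim). The labels give no length or intensity of exercise, no batch and no link between fish of different groups. They also do not say whether the libraries of a group come from separate fish, so the p-values below rest on the spread among libraries, which may be technical.

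Complexes II to V take part in oxidative phosphorylation. Complex II, succinate dehydrogenase, oxidises succinate to fumarate in the citric acid cycle and hands the electrons to ubiquinone. Complex III passes them on to cytochrome c and complex IV, cytochrome c oxidase, to oxygen, while both pump or release protons across the inner membrane. Complex V, the ATP synthase, uses the returning protons to make ATP. Complex II is wholly nuclear-encoded, whereas complexes III, IV and V also hold subunits made from mitochondrial DNA. Fast, glycolytic fibres make up most of the trunk muscle of zebrafish, and slow, oxidative fibres form a thin superficial layer.

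Libraries held 31550213 to 48920974 counts. The TMM factor, which rescales library sizes for differences in composition, was lower in 1y_swim (0.659 to 0.946) than in 1y_control (1.04 to 1.25) with no overlap. Levels are given in CPM, counts scaled to a common TMM-corrected library size, unless stated otherwise. The list of 24 fast fibre markers matched 15 genes by symbol, and that of 15 slow fibre markers matched 9. All matched genes were detected in every group. Their summed levels per library were 73977 to 183635 CPM for fast and 205 to 1977 CPM for slow fibre markers. Several libraries stood apart for the members. The library 1y_swim 3 was the highest of its group for 49 of the 51 genes tested, 3y_control 1 for 44 and 1y_control 4 for 41, while 1y_swim 4 was the lowest of its group for 41. The list of 21 exocrine pancreas markers matched 18 genes. Their summed levels were 34.4 to 226 CPM in 1y_swim against at most 24.2 CPM in any library of the other groups. In bulk tissue, fewer cells of a type and less RNA per cell cannot be told apart.

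Complex V held the member with the highest level per gene length. On the RPKM scale (CPM divided by gene length in kilobases), the mean over all 20 libraries was 2034 for ATP5F1B, the catalytic beta subunit of ATP synthase. It was 1440 for COX4I1, a regulatory subunit of cytochrome c oxidase, 405 for UQCR10, a small subunit of complex III, and 174 for SDHA, the flavoprotein of complex II that oxidises succinate. These are the highest members of complexes V, IV, III and II, though in complex III UQCRFS1 was nearly level with UQCR10 (404.7 against 404.9 RPKM). The genes of complex IV ranged from COX4I1 down to cox6b1 at 4.25 RPKM, and those tested of complex V from ATP5F1B down to ATP5MC3 at 86.6 RPKM. Complex IV held most of the pairs with a high and a low copy. The COX5B gene ENSDARG00000068738 stood at 695 RPKM and its copy ENSDARG00000015978 at 17.6. For the gene listed as COX6A1 (ENSDARG00000054588) the level was 866 RPKM and for cox6a1 (ENSDARG00000022438) it was 9.70. The copies cox6b2 and cox6b1 stood at 426 and 4.25 RPKM, and cox8b and cox8a at 710 and 26.4. Such copies can share reads, and how the counting treated those is not given in the sources used here.

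**Figure D1:**
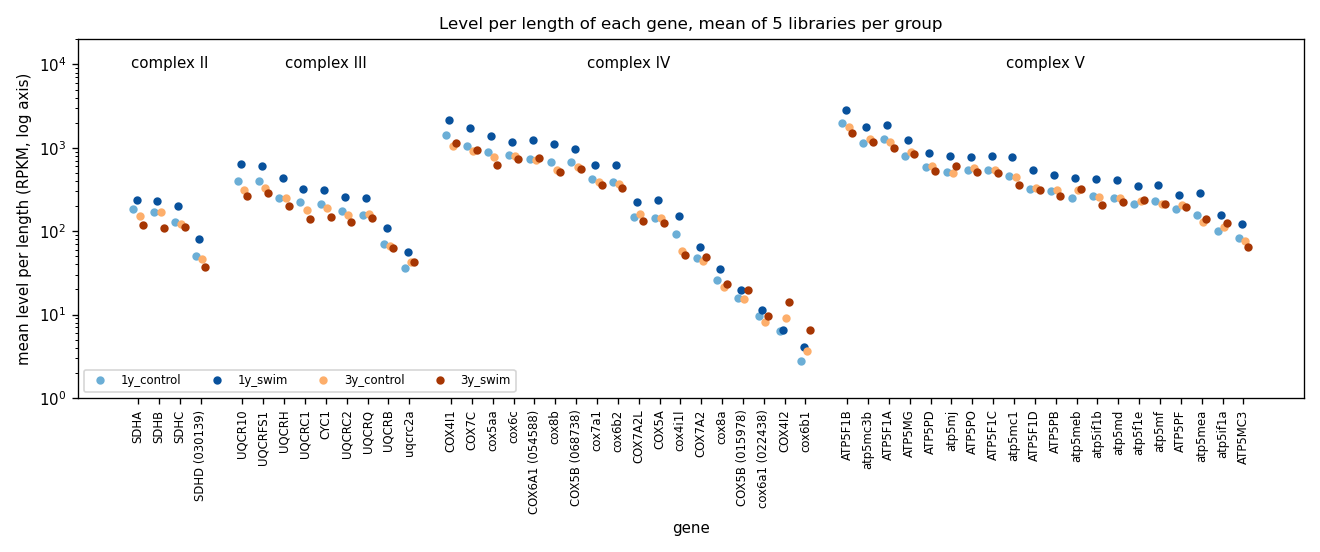
Mean level per length (RPKM, log axis) of each of the 51 genes tested in the 4 groups, ordered by level within each complex. ATP5F1B lies at the top of complex V and COX4I1 at the top of complex IV, and the low copies of complex IV lie far below it.

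Among fish without exercise the 52 genes together took 2.37 ± 0.34% of all counts at 1 year and 2.18 ± 0.30% at 3 years (SD, n = 5). Among exercised fish they took 2.66 ± 0.32% and 1.81 ± 0.24%. The libraries of 3y_swim (1.54 to 2.12%) lay below all those of 1y_swim (2.29 to 3.13%), and every other pair of groups overlapped. Complex II went from 0.108 ± 0.014% in 1y_swim to 0.0655 ± 0.012% in 3y_swim and complex III from 0.336 ± 0.033% to 0.201 ± 0.027%. Complex IV went from 0.637 ± 0.109% to 0.423 ± 0.040% and complex V from 1.58 ± 0.19% to 1.12 ± 0.17%. In each complex the shares of 3y_swim and 1y_swim did not overlap, in complex V only just (at most 1.372% against at least 1.381%). In 1y_control and 3y_control the shares were 0.103 and 0.0906% for complex II, and 0.296 and 0.257% for III. They were 0.553 and 0.474% for IV, and 1.42 and 1.36% for V. In complexes II, III and IV the shares of 3y_swim also lay below all those of 1y_control. The highest of 3y_swim were 0.0774, 0.226 and 0.470%, and the lowest of 1y_control 0.0885, 0.243 and 0.482%. No other groups separated in any complex. These shares are of raw library totals and so do not depend on the TMM factor, but abundant genes weigh most in them. A score that weighs the genes tested alike is the mean of their log2 CPM, each centred on its mean over all libraries. By this score 3y_swim lay below 1y_swim without overlap in complexes II, III and V. In complex IV the groups overlapped (-0.40 to 0.098 in 3y_swim and 0.0025 to 1.12 in 1y_swim). The score of complex II in 3y_swim also lay below all of 1y_control (at most -0.357 against at least -0.199).

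**Figure D2:**
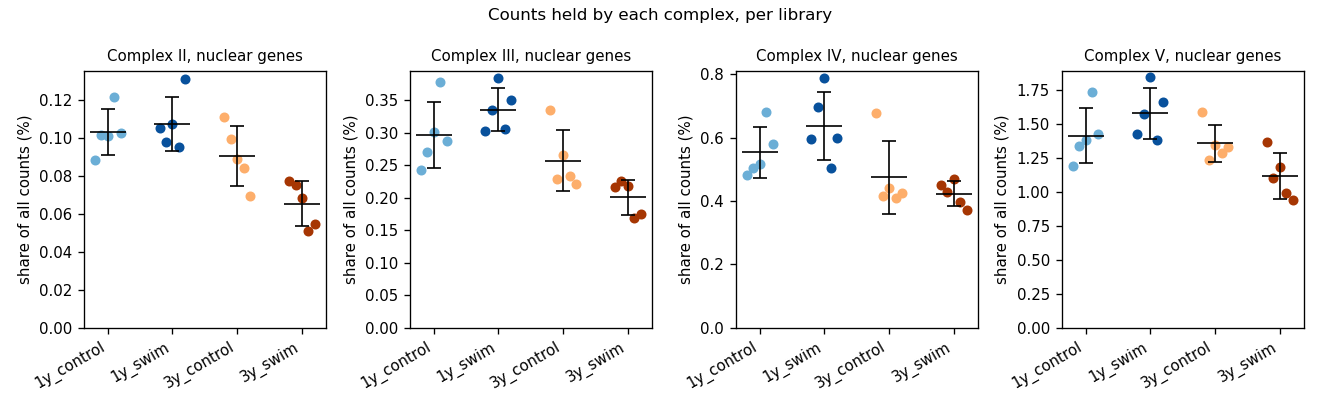
Share of all counts (%) taken by the nuclear genes of each complex in each of the 20 libraries, with the mean and SD of each group (n = 5). In all 4 complexes the 5 libraries of 3y_swim lie below the 5 of 1y_swim.

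The comparison of 3y_swim with 1y_swim asks how exercised muscle differs with age. At an adjusted p under 0.05 over all genes tested, 37 of the 51 members fell and COX4I2 alone rose, where 10.1% of all genes fell and 7.59% rose (edgeR quasi-likelihood test with Benjamini-Hochberg adjustment, n = 5 per group). The median log2 change of the members was -0.82, against 0.04 over all genes, and 3 members had a value above 0, as did 52.6% of all genes. An unadjusted p under 0.05 was found for 45 members and 31.6% of all genes. By complex, 4 of 4 genes tested of complex II fell, 8 of 9 of complex III, 11 of 18 of complex IV and 14 of 20 of complex V, with median log2 changes of -1.05, -1.05, -0.79 and -0.76. The libraries of 3y_swim lay below all those of 1y_swim for 30 members, where 7.44% of all genes showed this. No member had all its values in 3y_swim above those in 1y_swim, where 5.43% of all genes did.

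**Figure D3:**
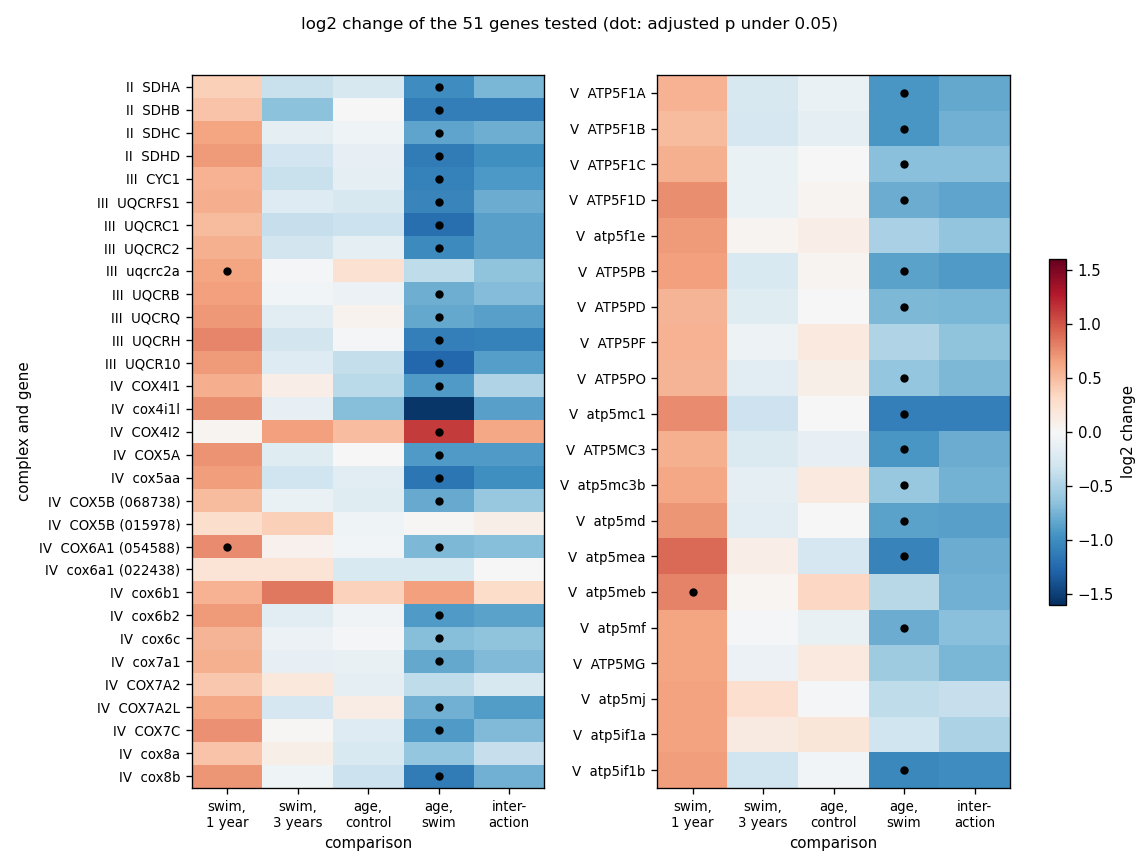
log2 change (colour) of the 51 genes tested in the 5 comparisons, with a dot where the adjusted p is under 0.05. The column of age among exercised fish holds 38 dots, the swim effect at 1 year 3 and the other columns none.

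In complex II the catalytic subunits fell together with the membrane anchors. SDHA had 641, 657, 804, 570 and 758 CPM in the libraries of 1y_swim and 360, 397, 350, 292 and 322 CPM in those of 3y_swim. The lowest younger library thus stood well above the highest older one. Its log2 change was -0.995 ± 0.159 (SE, adjusted p = 0.000532), a fold of 0.502. SDHB, the iron-sulfur subunit that carries electrons from SDHA to ubiquinone, had 304, 228, 354, 182 and 333 CPM in 1y_swim and 148, 143, 118, 133 and 109 CPM in 3y_swim. The groups did not overlap, and the log2 change was -1.10 ± 0.18 (adjusted p = 0.000699). SDHD (ENSDARG00000030139), which with SDHC holds the complex in the membrane, had 91.8, 132, 168, 101.3 and 107 CPM in 1y_swim and 54.6, 52.5, 65.1, 54.9 and 49.98 CPM in 3y_swim. Again no older library reached a younger one, and the log2 change was -1.12 ± 0.18 (adjusted p = 0.000677). SDHC changed by -0.84 ± 0.18 (adjusted p = 0.00333).

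Complex III held the member with the smallest p. UQCRC1, a core subunit outside the electron path, had 658, 808, 1037, 639 and 702 CPM in 1y_swim and 295, 382, 357, 315 and 310 CPM in 3y_swim. Every older library lay far below the younger ones, and the log2 change was -1.21 ± 0.17 (adjusted p = 0.000251). CYC1, cytochrome c1, which reduces cytochrome c, had 564, 629, 845, 516 and 619 CPM in 1y_swim and 283, 317, 309, 311 and 283 CPM in 3y_swim. The spread within 3y_swim was narrow, and CYC1 fell by 1.08 on the log2 scale (adjusted p = 0.000261). UQCRFS1, the Rieske iron-sulfur protein that takes electrons from ubiquinol, had 853, 945, 1331, 738 and 883 CPM in 1y_swim and 417, 521, 465, 462 and 428 CPM in 3y_swim. It was lower in every older library, with a log2 change of -1.05 ± 0.17 (adjusted p = 0.000654). UQCRC2, the other core subunit, had 458, 512, 709.5, 399 and 468 CPM in 1y_swim and 254, 245, 276, 258 and 225 CPM in 3y_swim. These groups did not overlap either, and the log2 change was -1.02 ± 0.17 (adjusted p = 0.000699).

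The small subunits of complex III fell as well. UQCR10, the member of the complex with the highest level per length, had 220.0, 388, 494, 270.0 and 270.0 CPM in 1y_swim and 112, 162, 137, 128 and 144 CPM in 3y_swim. All older libraries were below the younger ones, which spread widely through 1y_swim 2 and 1y_swim 3, and the log2 change was -1.26 ± 0.25 (adjusted p = 0.00215). UQCRH, UQCRQ and UQCRB fell by 1.09, 0.82 and 0.79 on the log2 scale.

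The paralogue uqcrc2a was the member of complex III that did not pass in this comparison. Its values were 177, 177, 238, 162 and 178 CPM in 1y_swim and 164, 127, 129, 148 and 136 CPM in 3y_swim. The groups overlapped by the lowest younger and the highest older library, and the log2 change was -0.40 ± 0.15 (adjusted p = 0.0686).

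In complex IV the abundant copies fell and several low copies did not pass. The cox5aa gene, a gene for subunit 5A on the matrix side of the enzyme, had 802, 989, 1465, 748 and 815 CPM in 1y_swim and 419, 463, 419, 439 and 419 CPM in 3y_swim. The older libraries lay close together and all below the younger ones, and the log2 change was -1.16 ± 0.18 (adjusted p = 0.00042). COX4I1, the most abundant gene of complex IV, had 1368, 1868, 2329, 926 and 1086 CPM in 1y_swim and 850, 705, 840, 908 and 741 CPM in 3y_swim. The lowest younger library stood just above the highest older one. COX4I1 changed by -0.91 ± 0.26 (adjusted p = 0.0235), and it did not pass when 1y_swim 2 or 1y_swim 3 was left out.

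The other genes of complex IV that fell were COX5A, COX5B (ENSDARG00000068738), COX6A1 (ENSDARG00000054588), cox6b2, cox6c, cox7a1, COX7A2L, COX7C and cox8b. Their log2 changes ran from -0.68 for cox6c to -1.11 for cox8b. COX7A1 is the subunit 7A isoform of heart and skeletal muscle in mammals, and COX7A2L takes part there in joining complexes III and IV into supercomplexes. The low copies COX5B (ENSDARG00000015978), cox6a1 (ENSDARG00000022438), cox6b1, COX7A2 and cox8a had log2 changes of 0.02, -0.24, 0.66, -0.40 and -0.61, and cox4i1l had -1.56 ± 0.57, and none of these passed. The levels of cox4i1l ranged from 13.8 to 280 CPM over the 20 libraries and had the largest standard error of the members in this comparison. Whether high and low copies differ in their change was not tested.

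COX4I2 went the other way. It codes for an isoform of subunit 4 that in mammals is most abundant in lung and regulated by oxygen. In 1y_swim it had 5.67, 6.21, 11.5, 4.17 and 4.28 CPM and in 3y_swim 13.8, 11.8, 14.6, 18.1 and 10.4 CPM. The groups overlapped only through 1y_swim 3, the library that was highest for most members. The log2 change was 1.12 ± 0.25 (adjusted p = 0.0053), a fold of 2.17, and COX4I2 passed in each of the 20 fits that left out a library.

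In complex V the catalytic head, the peripheral stalk and the membrane ring all held genes that fell. ATP5F1B had 4550, 5220, 7255, 4180 and 5288 CPM in 1y_swim and 3266, 2748, 2752, 2749 and 2432 CPM in 3y_swim. The groups did not overlap, and the log2 change was -0.93 ± 0.15 (adjusted p = 0.000557). ATP5F1A, the alpha subunit beside it in the head, had 3182, 3614, 5107, 2995 and 3489 CPM in 1y_swim and 2068, 1989, 1891, 1896 and 1813 CPM in 3y_swim. It too was lower in every older library, with a log2 change of -0.93 ± 0.16 (adjusted p = 0.000821). Of the central stalk, ATP5F1C and ATP5F1D fell by 0.67 and 0.80 on the log2 scale, and atp5f1e had -0.52 ± 0.21 without passing.

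The 3 genes for subunit c, which forms the proton-driven ring, all fell, with log2 changes of -1.10 for atp5mc1, -0.93 for ATP5MC3 and -0.61 for atp5mc3b. Of the peripheral stalk, which keeps the head from turning, ATP5PB, ATP5PD and ATP5PO fell by 0.86, 0.72 and 0.62, and ATP5PF had -0.49 ± 0.20 (adjusted p = 0.108). Among the 6 other membrane subunits atp5md, atp5mea and atp5mf fell by 0.86, 1.06 and 0.79, while atp5meb, ATP5MG and atp5mj did not pass. Of the copies of the inhibitor IF1, which blocks ATP hydrolysis by the synthase, atp5if1b fell by 1.03 (adjusted p = 0.00886), and atp5if1a had -0.31 ± 0.23 (adjusted p = 0.363). The member atp5mf did not pass without 1y_swim 3. Besides COX4I1 and atp5mf, the 36 other members called here passed in each fit that left out 1 library.

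The tests of this comparison stand beside other differences between the same libraries. Exocrine pancreas markers fell in 11 of 13 genes tested (summed level 34.4 to 226 CPM in 1y_swim and 2.70 to 13.7 CPM in 3y_swim), with RBPJL at 0 in 1y_swim and PTF1A in 3y_swim. Liver markers fell in 14 of 14 (59.05 to 742 against 3.11 to 25.4 CPM), and leukocyte markers rose in 5 of 11 (98.4 to 231 against 275 to 401 CPM). Summed fast fibre markers overlapped (109754 to 183635 against 105661 to 182668 CPM, 1 of 15 higher), as did slow fibre markers (205 to 1977 against 264 to 1090 CPM, 1 of 9 lower). Epidermis markers were 112 to 372 CPM against 108 to 2553 CPM, 1 of 13 higher. The part of these markers in the result was not tested. Without 1y_swim 2 and 1y_swim 3, the libraries with the lowest TMM factors, 20 members fell and COX4I2 rose, with a median of -0.49. Without the 3 libraries with the highest epidermis markers (1y_control 5, 3y_swim 1 and 3y_swim 3) 21 fell and COX4I2 rose, with a median of -0.76. Both of these fits leave fewer libraries in a compared group, and the part of group size in the lower counts was not tested. When raw library totals replaced the TMM factors, which moves the median of all genes to 0.29, 30 fell and COX4I2 rose, with a median of -0.51. The shares of all genes that fell or rose in these other fits are not given here.

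**Figure D4:**
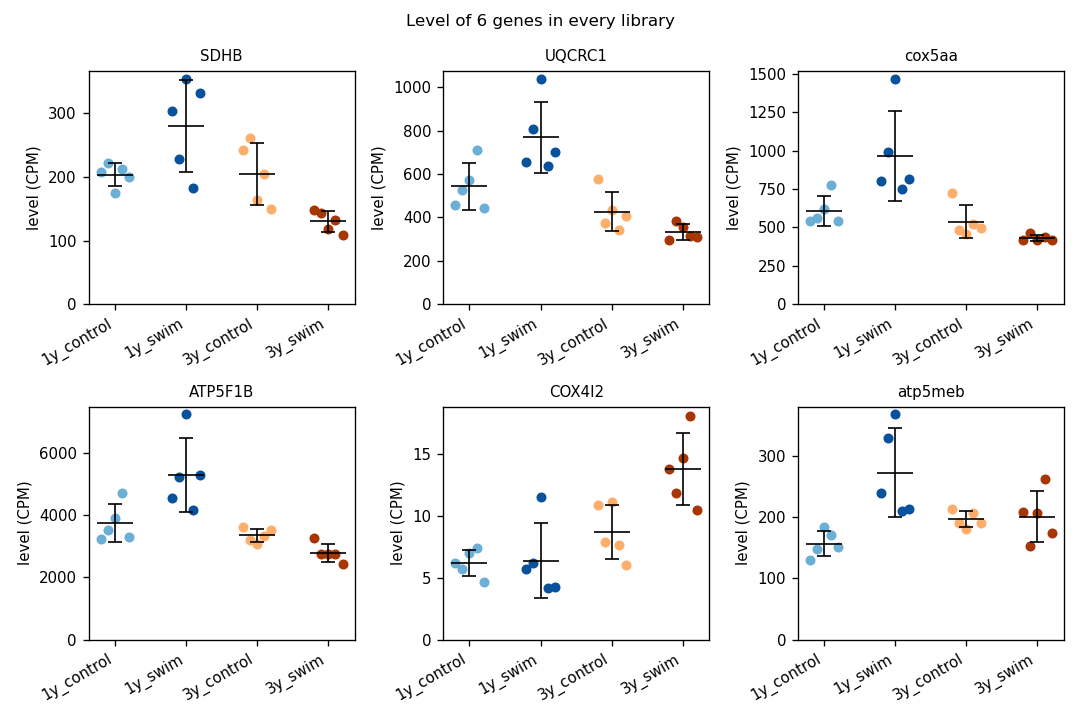
Level (CPM) of 6 members in each of the 20 libraries, with the mean and SD of each group (n = 5). SDHB, UQCRC1, cox5aa and ATP5F1B lie lower in all 5 libraries of 3y_swim than in all 5 of 1y_swim. COX4I2 has its highest mean in 3y_swim, where its values overlap those of 1y_swim and 3y_control. The gene atp5meb lies higher in all 5 libraries of 1y_swim than in all 5 of 1y_control.

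Genes that work with these complexes were counted in the same comparison, in which 10.1% of all genes fell. Of the mitochondrially encoded subunits of complexes III to V, 6 of 6 fell, among them MT-CYB, the cytochrome b of complex III, by 0.92 and MT-CO2, which takes the electrons from cytochrome c, by 1.14. So did 7 of 7 mitochondrially encoded subunits of complex I, and 29 of 39 nuclear genes named for complex I. The soluble electron carrier gene cycsb, a cytochrome c, had -1.28 ± 0.19 (adjusted p = 0.000333). Among assembly factors, 2 of 4 for complex II fell, 6 of 6 for complex III, 14 of 22 for complex IV and 3 of 3 for complex V. BCS1L, which inserts the Rieske protein into complex III, had -1.56 ± 0.18 (adjusted p = 8.71e-05). LRPPRC, which in mammals stabilises mitochondrial mRNA, had -1.29 ± 0.24 (adjusted p = 0.00163), and ATPAF2, an assembly factor of the synthase head, -1.23 ± 0.20 (adjusted p = 0.000654). For the export of ATP 3 of 4 genes fell, including SLC25A5, an ADP/ATP carrier, with -1.21 ± 0.28 (adjusted p = 0.00595). Of 9 regulators of mitochondrial genes TFAM, the packaging and transcription factor of mitochondrial DNA, alone fell, by 0.67 (adjusted p = 0.0109), and PPARGC1A had -0.41 ± 0.87 (adjusted p = 0.788).

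Exercise at 1 year was examined by setting 1y_swim against 1y_control. Here 3 of 51 members rose and none fell, where 0.793% of all genes rose and 0.347% fell (edgeR). The median log2 change was 0.63 over the members and -0.01 over all genes, with 0.55 for complex II, 0.63 for III, 0.58 for IV and 0.64 for V. All 51 values lay above 0, as did 48.7% of all genes, and 44 members had an unadjusted p under 0.05, as did 19.2% of all genes. The groups did not overlap for 2 members, COX6A1 and atp5meb, where 2.41% of all genes were higher and 1.61% lower without overlap. The libraries of 1y_swim also serve in the age comparison among exercised fish and in the interaction, so these comparisons are not separate results. Over all members tested the mean score was 0.475 in 1y_swim. It was -0.092 in 1y_control, -0.155 in 3y_control and -0.228 in 3y_swim.

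The 3 genes that rose belong to different complexes. The gene atp5meb, for subunit e, which helps ATP synthase form dimers, had 130, 148, 183, 171 and 151 CPM in 1y_control and 240, 330, 368, 211 and 213 CPM in 1y_swim. All exercised libraries were above all controls, and the log2 change was 0.80 ± 0.17 (adjusted p = 0.0296). COX6A1 (ENSDARG00000054588), a small membrane subunit of complex IV, had 458, 515, 561, 654.1 and 449 CPM in 1y_control and 761, 1014, 1226, 654.3 and 805 CPM in 1y_swim. The highest control and the lowest exercised library nearly met, and the log2 change was 0.76 ± 0.18 (adjusted p = 0.0453). For uqcrc2a the values were 93.0, 107, 135, 163 and 106 CPM in 1y_control and 177, 177, 238, 162 and 178 CPM in 1y_swim. They overlapped by the highest control and the lowest exercised library, and the log2 change was 0.63 ± 0.15 (adjusted p = 0.0488). Of complex II, SDHD (ENSDARG00000030139) had the smallest p, with 0.68 ± 0.18 (adjusted p = 0.0661). COX4I2 had the smallest change of the members, 0.04 ± 0.25.

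The count of members that passed at 1 year moved with the libraries and settings. It was 0 without 1y_control 1, 2 or 3 or without 1y_swim 2 or 3, 18 without 1y_control 4 or without 1y_swim 4, 8 without 1y_swim 1, and 24 with DESeq2. It was 1 without 1y_control 5, 1y_swim 5, 3y_control 2, 3, 4 or 5, or 3y_swim 1, 2, 3 or 5. The shares of all genes called in these other fits are not given here, so the counts have no share to be set against. The median stayed between 0.43 and 0.72 when 1 library was left out, the lowest value being without 1y_swim 3. When raw library totals replaced the TMM factors no member passed and the median was 0.20, where that of all genes moved to -0.40. Exocrine pancreas markers rose in 10 of 13 genes in this comparison (2.47 to 14.9 CPM in 1y_control against 34.4 to 226 CPM in 1y_swim), and liver markers had a median log2 change of 2.56 with 0 of 14 called (7.08 to 106 against 59.05 to 742 CPM). Summed fast fibre markers were 73977 to 119543 CPM in 1y_control and 109754 to 183635 CPM in 1y_swim, with all 15 log2 changes above 0 (median 0.45) and none called. The part of these markers in the values of the members was not tested. Of the partner genes, 2 of 39 complex I genes rose, and so did cox20, an assembly factor for the COX2 subunit, by 0.78 ± 0.17 (adjusted p = 0.038).

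Exercise at 3 years was examined by setting 3y_swim against 3y_control. No member passed in edgeR, where 0.0705% of all genes did (0.047% higher and 0.0235% lower), and none did in DESeq2. An unadjusted p under 0.05 was found for 5 members (9.03% of all genes). The median log2 change was -0.13, with -0.33 for complex II, -0.21 for III, -0.02 for IV and -0.12 for V. All 4 members tested of complex II and all 9 of complex III had values below 0, and 9 of 18 of complex IV and 15 of 20 of complex V did. Over all genes tested, 48.9% had values above 0.

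SDHB had the smallest p at 3 years. Its values were 242, 262, 164, 205 and 149.0 CPM in 3y_control and 148.0, 143, 118, 133 and 109 CPM in 3y_swim. No exercised library reached a control, though the nearest pair differed little, and the log2 change was -0.65 ± 0.18 (adjusted p = 0.272). CYC1 had 501, 359, 361, 355 and 349 CPM in 3y_control and 283, 317, 309, 311 and 283 CPM in 3y_swim. The groups did not overlap and 3y_control 1 stood apart from the other controls, and the log2 change was -0.36 ± 0.15 (adjusted p = 0.485). These 2 were the members with lower, non-overlapping values, where 0.793% of all genes were. COX4I2 had 0.66 ± 0.25 (adjusted p = 0.411), and of complex V ATP5F1B had the smallest p, with -0.27 ± 0.15 (adjusted p = 0.616). Without 3y_control 1 the median of the members was -0.02, with -0.24 for complex II, -0.04 for III, 0.19 for IV and -0.04 for V. Summed fast fibre markers were 90820 to 119630 CPM in 3y_control and 105661 to 182668 CPM in 3y_swim, with 1 of 15 called, higher, and a median log2 change of 0.57. Their part in the values of the members was not tested.

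The age effect without exercise compares 3y_control with 1y_control. No member passed in edgeR or in DESeq2, where 1.19% of all genes did in edgeR, and no member had an unadjusted p under 0.05, as 15.9% of all genes did. The median log2 change was -0.05, and medians by complex were -0.10, -0.15, -0.13 and 0.01 for II, III, IV and V. No member separated the groups, as 2.16% of all genes did with higher and 1.99% with lower values in older fish. The members with the smallest p of their complex were SDHA with -0.26 ± 0.16 (adjusted p = 0.435), UQCRC1 with -0.35 ± 0.17 (adjusted p = 0.327), COX4I2 with 0.49 ± 0.25 (adjusted p = 0.342) and atp5meb with 0.33 ± 0.17 (adjusted p = 0.357). Without 1y_control 4 the median was 0.03 and without 3y_control 1 it was -0.19. Of the partner genes NRF1, a transcription factor for nuclear genes of respiration, alone rose, by 0.63 ± 0.13 (adjusted p = 0.0177).

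Whether the swim effect differs between the ages, which is also whether the age effect differs with exercise, was tested as an interaction. No member passed in edgeR, where 0.335% of all genes did (0.0529% higher and 0.282% lower), and 11 did in DESeq2. The share of all genes called by DESeq2 is not given here, so the 11 cannot be set against the 0.335%. In edgeR an unadjusted p under 0.05 was found for 40 members, as for 14.5% of all genes. Values lay below 0 for 48 of 51 members, where 50.5% of all genes lay above 0. The median was -0.77, with -0.88, -0.87, -0.66 and -0.76 for II, III, IV and V. The smallest p of each complex were those of SDHB with -1.11 ± 0.26 (adjusted p = 0.0745), CYC1 with -0.92 ± 0.22 (adjusted p = 0.0796), COX7A2L with -0.89 ± 0.21 (adjusted p = 0.0815) and atp5mc1 with -1.09 ± 0.27 (adjusted p = 0.0855). The gene atp5mc1, shown because of its p, had 301, 357, 403, 546 and 352 CPM in 1y_control and 537, 715, 973, 546 and 547 CPM in 1y_swim. At 3 years it had 462, 382, 417, 308 and 378 CPM in 3y_control and 371, 281, 331, 323 and 246 CPM in 3y_swim. For this gene the exercised libraries were mostly the higher ones at 1 year and mostly the lower ones at 3 years, with overlap at both ages. It does not stand for all members, whose median swim effect at 3 years was -0.13 with none called. For COX7A2L the ranges were 75.1 to 131 CPM in 1y_control, 125 to 185 in 1y_swim, 88.4 to 134 in 3y_control and 82.0 to 97.3 in 3y_swim. Without 1y_control 4 there were 7 members that passed, all lower, and without 1y_swim 4 there was 1, with no share of all genes given. The change of these genes with age among exercised fish is therefore not shown by edgeR to differ from that without exercise. Of the partner genes BCS1L (-1.37 ± 0.25, adjusted p = 0.0297) and cycsb (-1.25 ± 0.27, adjusted p = 0.0459) passed, as did 1 of 7 mitochondrially encoded and 2 of 39 nuclear genes of complex I.

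Ratios within a library do not depend on its scaling, and several copies took different shares of their pair in the groups. These are descriptions with no test. Shares of cox4i1l, COX5A, cox6b1 and the low COX5B and cox6a1 copies were computed too. For these the groups overlapped in each comparison of swim or age, and their values are not given. At 1 year COX4I2 made up 0.427 ± 0.085% of the summed RPKM of COX4I1, cox4i1l and COX4I2 without exercise and 0.284 ± 0.037% with it (SD, n = 5). At 3 years these shares were 0.851 ± 0.216% and 1.17 ± 0.14%. All 10 libraries of older fish (0.573 to 1.38%) lay above all 10 of younger fish (0.237 to 0.544%). The share depends on COX4I1 as well as on COX4I2. Without exercise COX4I2 itself overlapped between the ages (4.66 to 7.36 CPM in 1y_control and 6.01 to 11.1 CPM in 3y_control). COX4I1 had 815 to 1314 CPM in 1y_control. In 3y_control it had 547 to 1355 CPM, the highest being 3y_control 1 and the next 744 CPM. The share of uqcrc2a in the sum with UQCRC2 was 17.4 ± 1.1% and 18.0 ± 1.2% in 1y_control and 1y_swim, and 21.7 ± 2.1% and 25.0 ± 2.4% in 3y_control and 3y_swim. In 3y_swim (21.7 to 27.7%) it lay above all younger libraries (16.1 to 19.4%), and 3y_control overlapped these only through 3y_control 1 at 18.1%.

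The share of atp5mea in the sum with atp5meb was 38.4 ± 5.3% and 38.8 ± 6.2% at 1 year and 29.1 ± 3.1% and 30.6 ± 4.7% at 3 years, without and with exercise. In 3y_control the highest library (32.9%) lay near the lowest of 1y_control (33.0%). The share of atp5if1a in both IF1 copies was 27.6 ± 4.0% in 1y_swim and 37.6 ± 4.5% in 3y_swim, with overlap. It was 27.2 ± 1.5% in 1y_control and 31.1 ± 9.9% in 3y_control, which overlapped too. COX7A2 took 9.87 ± 3.48% of the sum with cox7a1 in 1y_swim and 11.9 ± 3.7% in 3y_swim, and cox8a took 3.19 ± 0.59% and 4.34 ± 0.86% of the sum with cox8b, with overlap in both. In 1y_control and 3y_control these shares were 10.4 ± 2.0% and 10.2 ± 3.3% for COX7A2, with overlap. For cox8a they were 3.61 ± 0.34% and 4.30 ± 1.61%, also with overlap. Within the subunit c genes atp5mc1 took 29.0 ± 1.8% of the summed RPKM in 1y_swim (26.7 to 31.5%) and 22.6 ± 2.0% in 3y_swim (19.5 to 24.8%), which did not overlap. The gene atp5mc3b took 66.5 ± 1.9% (63.9 to 69.0%) and 73.3 ± 1.6% (72.0 to 76.0%), also without overlap. These shares of atp5mc1 and atp5mc3b make up most of the same sum, so they are not separate results. Without exercise the share of atp5mc1 was 26.8 ± 2.6% at 1 year and 25.0 ± 2.8% at 3 years. That of atp5mc3b was 68.2 ± 2.7% and 70.9 ± 3.1%, and both overlapped.

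**Figure D5:**
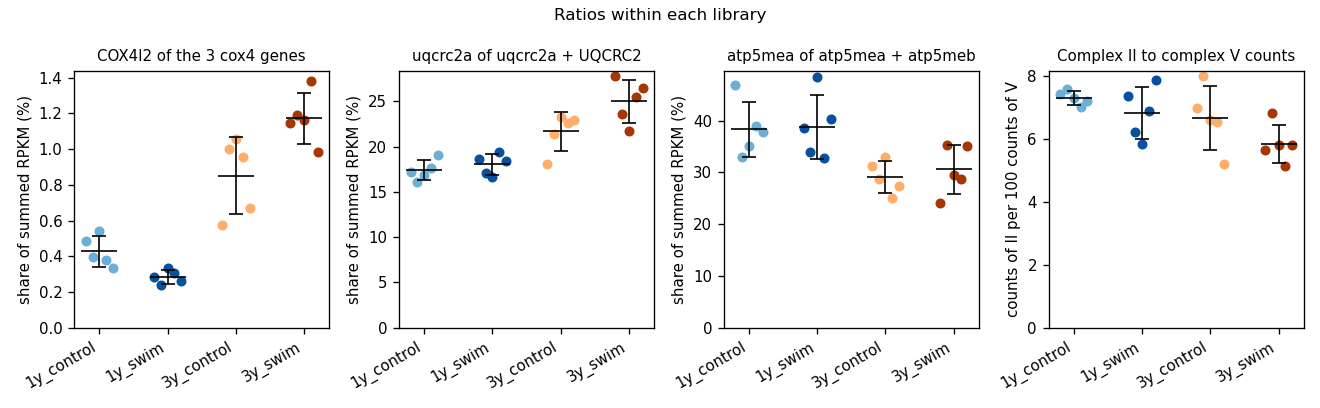
Ratios within each of the 20 libraries, with the mean and SD of each group (n = 5): the share (%) of COX4I2, uqcrc2a and atp5mea in the summed RPKM of their copies, and the counts of complex II per 100 counts of complex V. The COX4I2 share is higher in all 10 older libraries than in all 10 younger ones.

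Ratios between complexes and genomes were described in the same way. Summed counts of complex II were 7.31 ± 0.22% of those of complex V at 1 year without exercise and 6.84 ± 0.83% with it, and 6.67 ± 1.01% and 5.85 ± 0.61% at 3 years. The libraries of 3y_swim (5.15 to 6.82%) lay below all of 1y_control (7.01 to 7.58%) and overlapped the other groups. Mitochondrially encoded counts were 4.41, 4.14, 4.77 and 4.45 times the nuclear counts of complex III in 1y_control, 1y_swim, 3y_control and 3y_swim, and 14.2, 14.7, 15.0 and 14.5 times those of complex IV. For complex V the ratio was 1.00, 0.888, 0.945 and 0.805. The groups overlapped in each of these ratios.

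Within groups the members varied together. After the mean of each group was taken out, the median Pearson r between genes of a complex over the 20 libraries was 0.65 in complex II, 0.84 in III, 0.65 in IV and 0.82 in V. Between complexes it ran from 0.54 for II with IV to 0.79 for III with V. These are descriptions over libraries that share their depth and scaling, and no r of other genes was set beside them. The members least related to the mean of the others were cox4i1l with r = 0.24, cox6b1 with 0.34, SDHB with 0.39 and COX7A2 with 0.40, and the most related was atp5mf with 0.97.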

How the data were processed

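Libraries were prepared from total RNA of muscle with a TruSeq v2 kit, per the labels. The deposited table holds raw counts per Ensembl gene. The build GRCz10, featureCounts 1.4.6-p4, STAR 2.4.1d and bcl2fastq 1.8.4 are listed in the submitters' processing notes; annotation release, strand setting and treatment of multi-mapping reads are not given in the sources used here. A further table deposited by the authors was read as a score: checked on 406 genes, its values were scaled by the totals of successive libraries from row to row, not by each column's own total. It served only to recover gene lengths for RPKM, 387 to 3319 bases for the members.

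Genes kept by filterByExpr were fitted with edgeR 4.0.16 (R 4.3.3) as 1 model of the 4 group means, with TMM factors, robust quasi-likelihood F-tests and Benjamini-Hochberg adjustment over 17025 genes; those under 0.05 are called. The common dispersion was 0.163. Counts of 40 replicate pairs differed with a chi-square per degree of freedom of 29.6 to 173, above counting noise in every pair. This speaks only to the same library deposited again, not to whether libraries come from separate fish. SD is over 5 libraries and SE comes from the fit. Depth was 31550213 to 48920974 counts per library.

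Symbols came from the gene name table, which pairs 26269 of the 32105 identifiers. Copies of a gene may share reads. Any member could be named; full values went to called members (at most 10 per comparison), to the highest and the smallest-p member of each complex, and to sets of copies. Members, lists and alternatives were chosen with earlier results of these data known. Alternatives were RLE size factors, library totals, DESeq2 1.42.0, other filters, voom with sample weights and limma-trend on log2(RPKM + 1) from limma 3.58.1, only the libraries compared, and omission of libraries. The fits were tested on simulated data. No sequence is printed.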

Additional observations from a re-analysis of the deposited data

Results flagged for a closer look

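Levels of the genes described in full, shares of the complexes and mitochondrial-to-nuclear ratios were examined in 140 groups of 5 libraries for a library far from the others, and 11 were found. Chance gives about 1 in 20 groups, and genes that vary together are not separate cases.

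In 3y_control, library 1 stood above the other 4 for CYC1 (501 CPM, next highest 361), cox5aa (724 CPM, next 521), COX4I1 (1355 CPM, next 744) and atp5if1b (352 CPM, next 186), and for the share of counts of complex IV (0.679%, next 0.441%). In 1y_swim, library 3 stood above the others for uqcrc2a (238 CPM, next 178), COX4I2 (11.5 CPM, next 6.21) and the SDHD copy ENSDARG00000055712 (0.740 CPM, next 0.179), which was not tested. The gene cox4i1l stood at 126 CPM in 3y_control 5 (next 47.8) and COX5A at 133 CPM in 1y_control 4 (next 91.6). The ratio of mitochondrially to nuclear encoded counts of complex IV was 17.1 in 3y_swim 5 (next 14.2). No cause of these values was tested.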

How the results depend on the processing

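The number of members called and their median log2 change were recomputed under each alternative. The share of all genes called under each alternative, or with 1 library left out, is not given here. No value changed direction in a called result. At 1 year the swim effect had 24 members called with DESeq2 and 0 with no filter, with library totals, with limma-trend on RPKM, with only the libraries compared, without the 3 libraries of highest epidermis score, and without 1y_swim 2 and 1y_swim 3. Its median was 0.20 with library totals and 0.18 with limma-trend. Among exercised fish the age effect had 22 members called without the epidermis libraries and 21 without 1y_swim 2 and 1y_swim 3, and its median was -0.51 with library totals, -0.50 with limma-trend and -0.49 without those 2 libraries. The interaction had 11 called with DESeq2, and medians of -0.50 with voom, -0.43 with library totals, -0.44 with limma-trend and -0.45 without those 2 libraries. For the share of counts of all members, the log2 ratio was 0.17 at 1 year and -0.56 with age among exercised fish, and with TMM-scaled library sizes it was 0.59 and -0.86. The cause of these shifts was not tested.

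When 1 library at a time was left out, 0 to 18 members were called for the swim effect at 1 year (median 0.43 to 0.72), 36 to 43 for age with exercise (-0.93 to -0.63, the latter without 1y_swim 3) and 0 to 7 for the interaction (-0.86 to -0.57). None was called for the swim effect at 3 years (-0.18 to -0.02) or age without exercise (-0.19 to 0.03). The log2 ratio of shares ran from 0.10 to 0.26, from -0.33 to -0.18, from -0.21 to -0.03 and from -0.62 to -0.49 for swim at 1 year, swim at 3 years, age without and age with exercise. No paired analysis was possible because the labels give no replicate numbers and tie no library to a fish, batch or day across groups; the numbers used here only name libraries. Of the members only SDHD (ENSDARG00000055712) was removed by the low-count filter, and whether depth limited other members was not tested.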
